A study of Homo sapiens with 8 samples.

Results

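Fused organoids were compared with single organoids, both grown from the human embryonic stem cell line H1. Organoids are three-dimensional cultures in which stem cells form brain-like tissue. The members are all cells whose names start with 3DFusiVehic or 3DFusiAcMor (6 culture tags, 6378 cells) or with 3DMonoVehic or 3DMonoAcMor (4 culture tags, 5202 cells). Together they make up 11580 of the 43693 cells and 10 of the 46 culture tags of the series. A culture tag is the part of a cell's name that gives the format, the arrangement, the treatment and a number. Fusi is read here as fused and Mono as single, since the labels define neither and do not say which organoids were joined. AcMor and Vehic are treatments that the labels do not spell out (they speak of dopamine, cocaine, morphine and untreated cultures), and their doses and times are not stated in what was used here. The fused groups held numbers 1, 3 and 4 of each treatment and the single groups numbers 1 and 2 of each. All 4 groups come from the 1 line and no allele is named for any of them. A few organoids were broken up together for a cell suspension. Nothing says that the numbered tags were separate cultures, so p-values measure only the spread between tags, which may be technical.

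A developing brain records position along its length in transcription factors. EMX1, LHX2 and TBR1 belong to the dorsal telencephalon, which forms the cortex, EN1 and EN2 to the border of midbrain and hindbrain, and the HOX genes to the hindbrain, the spinal cord and the neural crest that leaves them. Along the ventral midline the floor plate makes SHH, the hedgehog ligand, with the forkhead factors FOXA1 and FOXA2. Organoids of different regions are often fused so that their cells can migrate and connect.

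A tag held 528 to 1839 cells and 7534664 to 49119283 expected counts, with a median of 9501 to 21683 counts per cell, and 4.45% to 21.5% of its cells, most in fused Vehic 1, were called doublets. The median share of mitochondrial counts per cell was 2.45% to 3.27% in the fused and 1.30% to 1.95% in the single tags, without overlap. All cells of a tag had the same 1 value in 1 part of the barcode. That no barcode occurred in more than 1 tag (0 of 10776 distinct barcodes) is therefore no check of the tags. Of these barcodes, 766 occurred in more than 1 sublibrary. The labelled cell type, embryonic stem cell, was checked by its markers, and 6 pluripotency genes together had only 1.98 to 3.89 CPM (counts scaled by the TMM-adjusted total of the tag) in a tag, against 2123 to 3779 CPM for 8 neuron markers. The fused tags numbered 1 stood apart from the other fused tags. On the first principal component, which held 49.4% of the variance of the 2000 most variable genes, they lay at -14.96 and -14.7, beside the single tags (-25.3 to -17.3), and fused numbers 3 and 4 lay at 25.1 to 35.7. Counts without these 2 tags are therefore given beside most gene lists. They were left out after it was seen that they lay nearest the single tags, which by itself tends to raise the number of calls, so these counts are a description of the other tags and support nothing.

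By the main test the makeup of the organoids differed in some categories, though not in every setting tried. Cells were grouped by clustering without the genes of the gene lists, and a group is called "-like" where its marker genes allow, or else keeps its cluster number. Genes outside these lists, HAND2, GATA3, NOS1, SPON1 and DTHD1 among them, could enter the clustering. Shares of a tag's cells were compared by a two-sided exact permutation test within treatment, with 100 arrangements, a smallest possible p of 0.01, and adjustment over 13 categories. With this floor, a category can pass the adjustment only if several categories reach the smallest p together. The test takes the tags as independent, while permuting whole numbers would leave only 10 arrangements, too few for any difference to pass.

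Cluster 6 was larger in every fused tag. SPON1 and SHH of the floor plate, the cilium-associated gene VWA3A, DTHD1 and the potassium channel gene KCNJ16 lead it. It stays unnamed because it matched the ciliated markers best (87.5% of them), while its leading genes held more floor plate markers. At clustering resolution 1.2, clusters of 1206 and 558 cells over the series were both led by DTHD1. Only the smaller had SHH, FOXA1 and SPON1 among its leading genes. Whether cluster 6 is 1 cell type was not tested. It held 8.67, 8.17 and 7.14% in fused AcMor 1, 3 and 4 and 8.38, 11.9 and 12.7% in fused Vehic 1, 3 and 4, against 0.87 and 1.5% in single AcMor 1 and 2 and 1.24 and 1.6% in single Vehic 1 and 2. All fused tags, number 1 included, lay above all single tags. The means were 9.49% ± 2.25 in fused (SD, n = 6) and 1.3% ± 0.325 in single tags (SD, n = 4), a difference of 8.19 percentage points (exact permutation p = 0.01, adjusted p = 0.0433).

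Excitatory neuron-like cells and intermediate progenitor-like cells, named for the step before cortical neurons, made up smaller shares. Shares within a tag sum to a whole, so a larger share of some categories lowers that of others. The differences are therefore not independent and do not give numbers of cells. Excitatory neuron-like cells made up 7.5, 7.17 and 4.49% in fused AcMor 1, 3 and 4 and 20.4, 2.89 and 9.66% in fused Vehic 1, 3 and 4, against 28.3 and 9.87% in single AcMor 1 and 2 and 32.3 and 22.9% in single Vehic 1 and 2. The ranges overlapped through fused Vehic 1 and single AcMor 2, but within each treatment every fused tag lay below every single tag. The means were 8.69% ± 6.23 in fused (SD, n = 6) and 23.4% ± 9.78 in single tags (SD, n = 4), a difference of -14.7 points (exact permutation p = 0.01, adjusted p = 0.0433). Intermediate progenitor-like cells made up 2.39% ± 1.89 in fused (SD, n = 6) and 8.71% ± 2.9 in single tags (SD, n = 4), a difference of -6.32 points (exact permutation p = 0.01, adjusted p = 0.0433), again with the 2 arrangements apart within each treatment. Without the fused tags numbered 1 the 3 differences were 8.68, -17.3 and -7.33 points, where the 36 arrangements left allow no p below 0.0556 (exact permutation, adjusted p = 0.0803 for each). A second clustering seed gave 8.17, -12.7 and -1.78 points (exact permutation p = 0.01, 0.02 and 0.02, adjusted p = 0.06 for each, over fewer categories). So which cells count as intermediate progenitor-like depended on the clustering. Leaving doublets out gave 7.7, -14.8 and -6.82 points (exact permutation p = 0.01, 0.02 and 0.01, adjusted p = 0.065, 0.0867 and 0.065), so none of the 3 passed there. Cluster 6 and intermediate progenitor-like cells stayed at the smallest possible p, and their adjusted p rose because fewer categories reached it. With any 1 of the 10 tags left out none of the 3 passed either (exact permutation, adjusted p = 0.0722 to 0.1625).

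**Figure D1:**
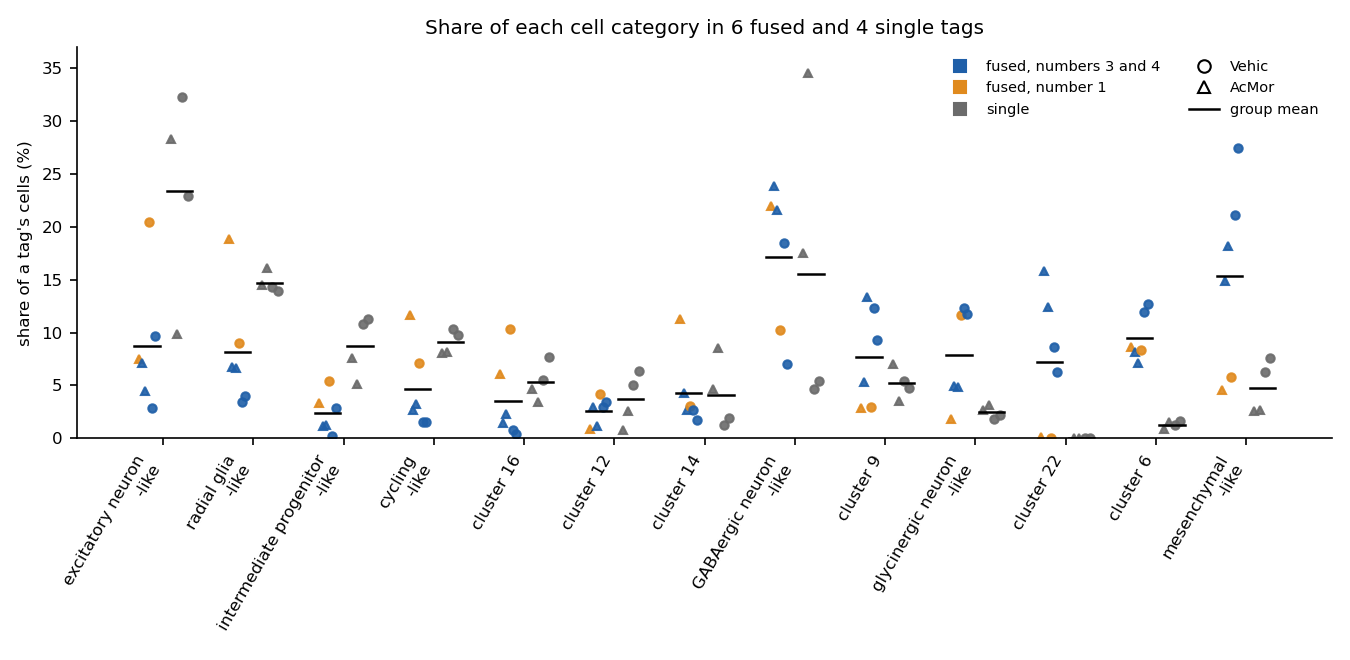
Share of a tag's cells (y axis, percent) in each of 13 cell categories (x axis), ordered by the difference between arrangements. Each point is a tag, circles are Vehic, triangles AcMor and short lines group means; cluster 6 is higher in all 6 fused tags, while in cluster 22 and among mesenchymal-like cells fused number 1 (orange) lies at or near the single tags (grey) and fused numbers 3 and 4 (blue) lie higher.

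The other 10 categories did not pass. Cluster 22, led by HAND2, NOS1 and SLC18A1 among others, held 15.8% and 12.4% of fused AcMor 3 and 4 and 8.68% and 6.25% of fused Vehic 3 and 4. Fused AcMor 1 had 1 such cell of 773 (0.129%, exact 95% binomial interval 0.00328 to 0.719), fused Vehic 1 had 0 of 1634, for which 3 counts of the total allow up to 0.184% and the exact interval up to 0.226%, and the single tags had 0 of 5202 cells. Such intervals cover counting error only. The difference over all tags was 7.21 points (exact permutation p = 0.07, adjusted p = 0.13). Mesenchymal-like cells, named from collagens and other connective tissue genes, made up 15.3% ± 8.91 in fused (SD, n = 6) and 4.78% ± 2.53 in single tags (SD, n = 4) (exact permutation p = 0.05, adjusted p = 0.13). The fused tags numbered 1 lay inside the single range there (4.53% and 5.81%), and the other 4 lay above it. Glycinergic neuron-like cells, here nearly all of cluster 3 and named from PAX2, LHX1 and LHX5, made up 7.89% ± 4.57 in fused (SD, n = 6) and 2.46% ± 0.589 in single tags (SD, n = 4), a difference of 5.43 points (exact permutation p = 0.03, adjusted p = 0.0975). It was 9.93 points among Vehic and 0.934 points among AcMor tags, and fused AcMor 1 (1.811%) lay below every single tag (lowest 1.819%). This difference could not be followed at clustering resolution 0.4, where the name falls on another cluster, led by SLC6A5. In fused tags these cells had 17.4 ± 10.6 CPM of the glycine transporter gene SLC6A5 (SD, n = 5) against 1.05 in other cells, but also 50.9 ± 23.2 CPM of the glutamate transporter gene SLC17A6 against 6.99, so the name does not give their transmitter.

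Radial glia or progenitor-like cells made up 8.12% ± 5.65 in fused (SD, n = 6) and 14.7% ± 0.968 in single tags (SD, n = 4) (exact permutation p = 0.06, adjusted p = 0.13), and cycling-like cells 4.62% ± 4.004 in fused (SD, n = 6) and 9.07% ± 1.13 in single tags (SD, n = 4) (exact permutation p = 0.14, adjusted p = 0.228). In both, fused AcMor 1 was above all single tags and the other 5 fused tags were below all of them. GABAergic neuron-like cells ranged over 7.01% to 23.8% in fused and 4.61% to 34.5% in single tags (exact permutation p = 0.66, adjusted p = 0.715). Clusters 9, 12, 14 and 16 did not pass either, and of the cells of cluster 16 over the series 91.9% were called doublets.

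With the counts of all cells of a tag summed, 353 of 23860 genes tested passed an adjusted p of 0.05 (1.48%) in edgeR's quasi-likelihood test, with the treatment in the model. Of these, 258 were higher in fused tags (1.08% of all tested) and 95 lower (0.398%). All 6 fused tags lay on 1 side of all 4 single tags for 1221 genes (5.12%). Of the same 23860 genes, 4266 had an unadjusted p under 0.05 and DESeq2 called 1565. These are the background for such counts in the lists below. In such sums, fewer cells of a type and less RNA per cell cannot be told apart. Without the fused tags numbered 1, 4255 of 23565 genes passed (18.1%), 2138 higher and 2117 lower. This is the background for all list counts given without these tags. The 4255 include 351 of the 353 with the same direction, the other 2 not being tested there. Tags of the same number had positively correlated deviations within an arrangement, though some of different number did too. With a correlation between them (limma voom, estimated at 0.286) 33 genes passed (0.138%), and with the number as a block in edgeR 24 passed (0.0971%). Since number 1 is the only one that both arrangements have, the block compares them through that number alone. Of the calls named below for all cells, those of FOXA1, HOXA3, HOXA9, HOXB-AS3 and LINC01478 held with the block and the others were lost, while ERBB4 was called with the block alone. Leaving out 1 tag at a time gave 67 (without single Vehic 2) to 1564 calls (without fused Vehic 1), and 47 of the 353 were called each time.

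**Figure D2:**
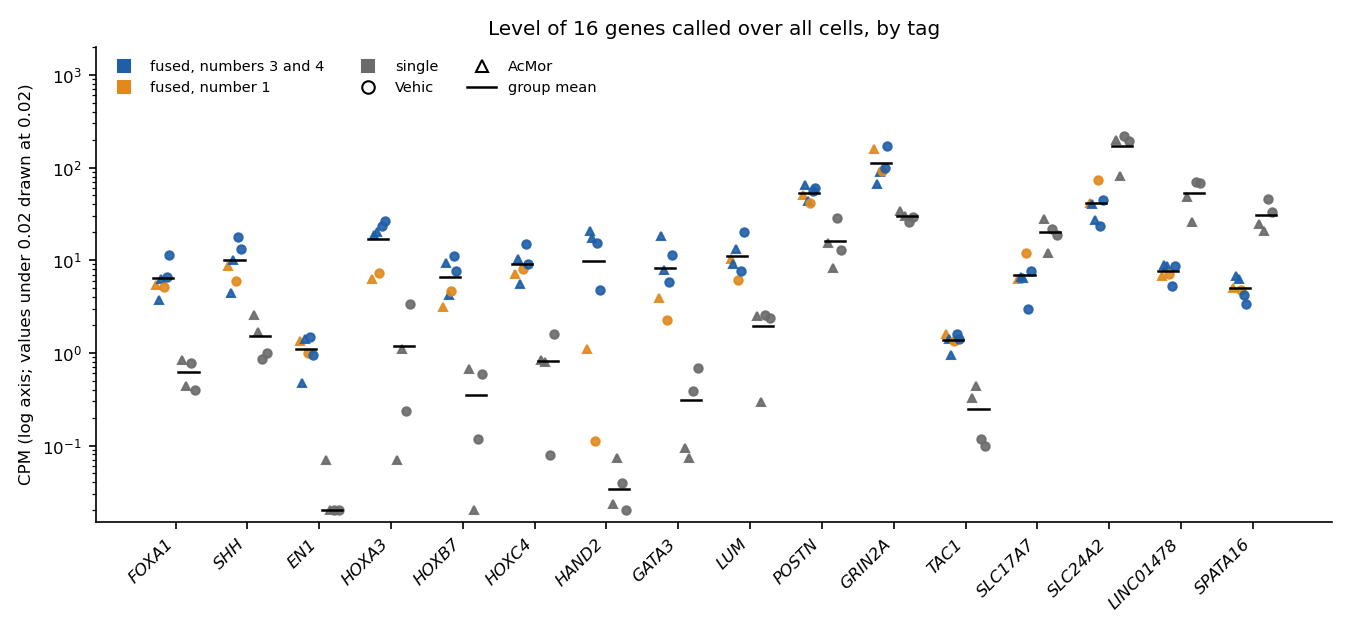
Level of 16 genes called over all cells (y axis, CPM, log axis, values under 0.02 drawn at 0.02) in each of the 10 tags, with circles for Vehic, triangles for AcMor and short lines for group means. The genes were chosen among those with the 6 fused tags on 1 side of the 4 single tags, and for HAND2 fused number 1 (orange) lies below fused numbers 3 and 4 (blue).

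Genes of the ventral midline rose. Of 7 floor plate markers 6 were tested and 5 were higher, and their summed level was 307.7 to 610.4 CPM in fused and 103.0 to 226.5 CPM in single tags. With the correlation by number 2 were called, FOXA1 and SPON1, and the calls of SHH, FOXA2 and NTN1 were lost (limma adjusted p = 0.15, 0.0705 and 0.126). FOXA2 had 0 counts in the single tags and passed the filter on low counts only through the fused tags, so its call supports nothing. FOXA1 (chr14:37589552-37595249, GRCh38.p14) had 5.41, 3.69 and 6.19 CPM in fused AcMor 1, 3 and 4 and 5.19, 6.64 and 11.5 CPM in fused Vehic 1, 3 and 4, against 0.84 and 0.439 CPM in single AcMor 1 and 2 and 0.784 and 0.395 CPM in single Vehic 1 and 2. Every fused tag was above every single tag, with those numbered 1 in the middle of the fused ones. The log2 fold change was 3.22 ± 0.36 (SE, n = 6 and 4, edgeR adjusted p = 0.00461). It was also called with each tag left out in turn, with the correlation by number (limma adjusted p = 0.0298) and with the block (edgeR adjusted p = 0.0446).

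SHH (chr7:155799980-155812463) had 8.62, 4.46 and 10.02 CPM in fused AcMor 1, 3 and 4 and 5.93, 17.9 and 13.1 CPM in fused Vehic 1, 3 and 4, against 2.57 and 1.68 CPM in single AcMor 1 and 2 and 0.863 and 0.987 CPM in single Vehic 1 and 2, again without overlap (log2 fold change 2.64 ± 0.47, edgeR adjusted p = 0.0243, limma adjusted p = 0.15 with the correlation). SPON1, named after its values were seen, encodes the floor plate protein F-spondin and had 124 ± 39.9 CPM in fused (SD, n = 6) and 26.2 ± 6.5 CPM in single tags (SD, n = 4) (log2 fold change 2.27 ± 0.26, edgeR adjusted p = 0.00461, limma adjusted p = 0.042 with the correlation, edgeR adjusted p = 0.0605 with the block). Of 14 axon guidance genes, all tested, 2 were higher and 0 lower (median log2 fold change 0.01), both of them cues made at the midline. Without the fused tags numbered 1, 5 were higher and 3 lower. The attractant NTN1 had 265 ± 56.6 against 115 ± 55.6 CPM (log2 fold change 1.32 ± 0.24, edgeR adjusted p = 0.0258, limma adjusted p = 0.126 with the correlation). The repellent SLIT2 had 454 ± 89.9 against 225 ± 80.98 CPM (log2 fold change 1.03 ± 0.21, edgeR adjusted p = 0.0369, limma adjusted p = 0.097 with the correlation). Their receptors were not called, DCC at 1208 ± 194 against 1742 ± 144 CPM without overlap (edgeR adjusted p = 0.0752) and ROBO1 at 1350.0 ± 225 against 1384 ± 383 CPM (edgeR adjusted p = 0.978).

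Cluster 6 held an uneven part of these transcripts. It made up 8.98% of all fused cells and held 70.7% of their SHH counts, 72.2% of FOXA1, 63.3% of SPON1, 45.3% of NTN1 and 36.2% of SLIT2. As a description of cells chosen by clustering, over the 6 fused tags it had 60.7 ± 27.8 CPM of SHH (SD, n = 6) and 40.1 ± 16.2 CPM of FOXA1, against 3.13 and 1.88 CPM in the other cells. The axonemal dynein gene DNAH9 had 231 ± 51.7 CPM there against 16.6 CPM, and the neuronal gene STMN2 54.1 ± 23.8 against 192 CPM. DTHD1, at 16.7 ± 11.5 against 1.17 ± 0.515 CPM, and KCNJ16, at 5.71 ± 3.23 against 0.333 ± 0.204 CPM, are also among the 10 largest rises by the naming rule (edgeR adjusted p = 0.0142 and 0.00605, limma adjusted p = 0.138 and 0.0576 with the correlation). The share of cluster 6 and the level of these genes were not separated by a test.

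Of 8 hedgehog signalling genes, all tested, 2 were higher and 0 lower (median log2 fold change 0.53, against -0.003 over all genes tested), and 4 were higher and 2 lower without the fused tags numbered 1. Beside SHH this was GLI1, a transcription factor switched on by the pathway, at 6.09 ± 1.86 against 2.78 ± 0.331 CPM (log2 fold change 1.10 ± 0.23, edgeR adjusted p = 0.0407, limma adjusted p = 0.13 with the correlation). Only 5.96% of its fused counts were in cluster 6. GLI2 and GLI3, which carry the signal to the nucleus, were not called over all tags (log2 fold changes -0.28 and -0.88, edgeR adjusted p = 0.526 and 0.128) and were the 2 lower ones without those tags. GLI3 had 711, 339.9 and 309 CPM in fused AcMor 1, 3 and 4 and 497, 230.1 and 226 CPM in fused Vehic 1, 3 and 4, against 706 and 680.4 CPM in single AcMor 1 and 2 and 722 and 681 CPM in single Vehic 1 and 2, so that fused AcMor 1 was at the single level and the other fused tags below it.

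Of 14 midbrain and dopaminergic genes 13 passed the filter on low counts, 4 were higher and 0 lower (median log2 fold change 1.21, the same with FOXA2 at its lower bound). EN1 and FOXA2, near or at 0 in the single tags, passed this filter only through the fused tags. Their calls, and the list counts that hold them, are therefore a description and support nothing more. With both fused number 1 left out 6 were higher, and with the correlation 2 and with the block 1 were called. EN1 (chr2:118842171-118847648) had 1.35, 0.467 and 1.4 CPM in fused AcMor 1, 3 and 4 and 0.988, 1.48 and 0.937 CPM in fused Vehic 1, 3 and 4, against 0.07 and 0 CPM in single AcMor 1 and 2 and 0 and 0 CPM in single Vehic 1 and 2. It was near 0 in all single tags, with 133 pooled counts against 3, a ratio of 35.2 (95% interval 11.8 to 173, counting error only; edgeR adjusted p = 0.00882, limma adjusted p = 0.042 with the correlation, edgeR adjusted p = 0.127 with the block). EN2 had 4.73 ± 1.74 against 1.76 ± 0.571 CPM with overlap (log2 fold change 1.40 ± 0.25, edgeR adjusted p = 0.0258, limma adjusted p = 0.097 with the correlation). FOXA2 had 82 counts over the fused and 0 over the single tags, at least 21.7-fold higher against a floor of 3 counts over the 4 single tags (edgeR adjusted p = 0.0327, limma adjusted p = 0.0705 with the correlation). The fourth was FOXA1. LMX1A and OTX2, which the midbrain shares with choroid plexus, had log2 fold changes of -0.21 and -0.23 (edgeR adjusted p = 0.854 and 0.735). TH, which makes the dopamine precursor, was at 1.38 ± 1.32 against 0.139 ± 0.12 CPM (edgeR adjusted p = 0.122), and 65.4% of its fused counts lay in cluster 22.

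Several HOX genes rose. Of 14 hindbrain and spinal cord genes 11 were tested, 5 were higher and 0 lower (median log2 fold change 2.37, and 2.61 with 8 higher without the fused tags numbered 1). With the correlation 1 was called, HOXB8, and with the block 1, HOXA3. HOXA3 (chr7:27107010-27152583) had 6.34, 18.5 and 20.01 CPM in fused AcMor 1, 3 and 4 and 7.28, 23.1 and 26.2 CPM in fused Vehic 1, 3 and 4, against 0.07 and 1.1 CPM in single AcMor 1 and 2 and 0.235 and 3.36 CPM in single Vehic 1 and 2. All fused tags were above all single tags, and those numbered 1 were the lowest of them. The log2 fold change was 4.24 ± 0.84 (edgeR adjusted p = 0.0354, limma adjusted p = 0.0593 with the correlation and edgeR adjusted p = 0.00848 with the block). HOXB8 had 115 pooled counts against 4, a ratio of 22.8 (95% interval 8.68 to 85.2, counting error only; edgeR adjusted p = 0.0136, limma adjusted p = 0.041 with the correlation, edgeR adjusted p = 0.114 with the block). HOXA2 rose too, at 0.946 ± 0.508 against 0.0846 ± 0.0612 CPM (edgeR adjusted p = 0.0296, limma adjusted p = 0.133 with the correlation). HOXB8 and HOXA2, near 0 in the single tags, passed the filter on low counts only through the fused tags. HOXB3 just missed the threshold at 13.2 ± 5.65 against 2.42 ± 3.06 CPM (edgeR adjusted p = 0.0506), with single Vehic 2 at 7.01 CPM. PAX2, of hindbrain and spinal interneurons, was at 28.2 ± 19.1 against 5.98 ± 2.54 CPM (edgeR adjusted p = 0.0682).

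All 39 HOX genes were then set out by position, a set taken after these values had been seen. They form 4 clusters, HOXA at chr7:27092993-27200091, HOXB at chr17:48528526-48728750, HOXC at chr12:53938831-54056030 and HOXD at chr2:176087487-176190907, and a lower paralog number means expression further towards the head. Of the 39, 16 passed the filter on low counts, which a gene near 0 in single tags passes only through the fused tags. Of these, 13 were called higher, against 1.08% of all genes tested, and 0 lower, and all 16 had a positive fold change. Both the choice of the set and the filter favour genes high in fused tags, so these counts describe the set and support nothing more. HOXB3, HOXC10 and HOXD10 were tested and not called. The calls fell on 5 of 6 tested genes of paralog groups 1 to 5, on 7 of 7 of groups 6 to 9 and on 1 of 3 of groups 10 to 13. With the correlation by number 3 were called, HOXA9, HOXB8 and HOXB9, and with the block 2, HOXA3 and HOXA9. In all, 10 of the 39 had 0 counts in every single tag, none of them tested, and HOXC12 and HOXD12 among them had 0 in every fused tag too.

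Summed over all HOX genes, a tag had 45.2, 105 and 70.3 CPM in fused AcMor 1, 3 and 4 and 49.02, 121 and 111 CPM in fused Vehic 1, 3 and 4, against 5.25 and 5.42 CPM in single AcMor 1 and 2 and 2.98 and 19.6 CPM in single Vehic 1 and 2. The fused tags numbered 1 were the lowest fused ones, and single Vehic 2 was the highest single one. By counts, not corrected for gene length, paralog group 3 carried most of this, with 48.7 ± 22.6 CPM in fused (SD, n = 6) and 5.51 ± 6.16 CPM in single tags (SD, n = 4). Group 4 had 9.65 ± 3.36 CPM in fused (SD, n = 6) and 0.872 ± 0.622 CPM in single tags (SD, n = 4), and group 9, typical of the trunk, 5.45 ± 1.24 CPM in fused (SD, n = 6) and 0.253 ± 0.164 CPM in single tags (SD, n = 4). The levels did not fall steadily with the paralog number. Group 1 had 0.366, group 2 1.82, group 5 0.572, group 8 1.45 and group 10 1.86 CPM in fused tags on average, and group 12 no count.

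HOXB7 was at 6.67 ± 3.17 against 0.347 ± 0.338 CPM (log2 fold change 4.1 ± 0.65, edgeR adjusted p = 0.0147, limma adjusted p = 0.0744 with the correlation). HOXC4 was at 9.14 ± 3.3 against 0.826 ± 0.613 CPM (log2 fold change 3.54 ± 0.55, edgeR adjusted p = 0.0136, limma adjusted p = 0.0637 with the correlation). HOXA9 was at 2.61 ± 0.424 against 0.129 ± 0.243 CPM (edgeR adjusted p = 0.0117, limma adjusted p = 0.0397 with the correlation). The antisense transcript HOXB-AS3 (chr17:48590420-48606414) was at 45.8 ± 17.2 against 3.71 ± 3.48 CPM (log2 fold change 3.77 ± 0.50, edgeR adjusted p = 0.00858, limma adjusted p = 0.0214 with the correlation and edgeR adjusted p = 0.024 with the block). The gene listed as ENSG00000273049 was at 13.9 ± 5.5 against 0.853 ± 0.908 CPM and spans chr12:53985845-54034888 in GENCODE v29, across HOXC4, HOXC5, HOXC6, HOXC8, HOXC9 and HOXC10. No source used here says whether counting used strand, so reads of overlapping and antisense HOX transcripts cannot be told apart.

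**Figure D3:**
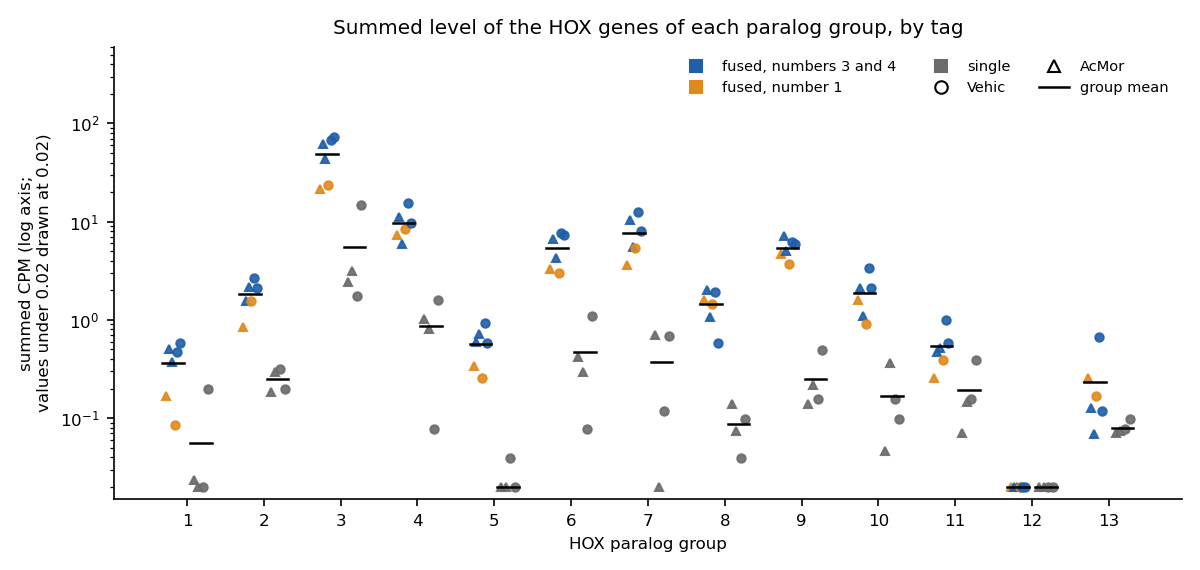
Summed level of the HOX genes (y axis, CPM, log axis, values under 0.02 drawn at 0.02) of each paralog group (x axis) in each tag, with circles for Vehic, triangles for AcMor and short lines for group means. Group 3 is highest in both arrangements, the fused tags (blue and orange) lie above the single tags (grey) in the sums of groups 2 to 10, and group 12 has no counts.

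HOX counts came from a few categories. Only the HOX genes of the hindbrain and spinal cord list were kept out of the clustering, so others may have helped to form these categories. By mean over fused tags with at least 20 such cells, the summed HOX level was 298 ± 59.6 CPM in cluster 22 (SD, n = 4), 182 ± 92.5 CPM in glycinergic neuron-like cells (n = 5), 169 ± 99.5 CPM in cluster 6 (n = 6), 81.1 ± 66.1 CPM in cluster 9, which has no clear markers (n = 6), and 80.1 ± 23.2 CPM in mesenchymal-like cells (n = 6). Excitatory neuron-like and GABAergic neuron-like cells of fused tags had 4.89 ± 3.69 and 3.8 ± 2.16 CPM (n = 6). In single tags the level was 36.3 ± 20.7 CPM in glycinergic neuron-like (n = 3), 40.8 ± 36.4 CPM in mesenchymal-like cells (n = 4) and 1.02 ± 1.22 CPM in cluster 9 (n = 4), where the 6 fused tags lay above the 4 single ones. Cluster 22 gave 28.9% of the fused HOX counts from 7.4% of the fused cells, and cluster 6 gave 21.2%.

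Among the largest rises by the naming rule were HAND2 and GATA3, factors known from autonomic neurons. Both lost the call with the correlation by number, and no list of autonomic genes was tested. HAND2 (chr4:173526091-173530229) had 1.1, 20.6 and 17.4 CPM in fused AcMor 1, 3 and 4 and 0.113, 15.2 and 4.8 CPM in fused Vehic 1, 3 and 4, against 0.0233 and 0.0732 CPM in single AcMor 1 and 2 and 0.0392 and 0 CPM in single Vehic 1 and 2. Fused numbers 3 and 4 were high, and fused Vehic 1 was barely above the single tags. With so few counts in single tags, HAND2 passed the filter on low counts only through the fused tags. Pooled, it had 1279 counts against 3, a ratio of 339 (95% interval 116 to 1644, counting error only; edgeR adjusted p = 0.0361, limma adjusted p = 0.331 with the correlation). GATA3, which acts in the sympathetic lineage, was at 8.22 ± 5.8 against 0.312 ± 0.291 CPM (log2 fold change 4.91 ± 0.79, edgeR adjusted p = 0.0157, limma adjusted p = 0.118 with the correlation). Of 10 neural crest and Schwann genes 9 were tested, 1 was higher and 0 were lower (median log2 fold change 1.10). With the correlation or the block 0 were called, and 4 were higher without the fused tags numbered 1.

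Cluster 22 held 91.4% of the HAND2 and 65.3% of the GATA3 counts of fused cells. As a description of cells chosen by clustering, over its 4 tags with at least 20 cells (SD, n = 4) the neuronal gene STMN2 had 426 ± 47.9 CPM, against 144 CPM in the other cells. NOS1, the neuronal nitric oxide synthase, had 443 ± 96.8 CPM, and PRPH, a filament of peripheral neurons, 22.4 ± 7.08 CPM. CHAT, which makes acetylcholine, had 48.2 ± 13.8 CPM and DBH, which makes noradrenaline, 31.1 ± 24.04 CPM. Of the dopaminergic neuron markers, TH had 9.72 ± 5.81 CPM inside and 0.861 outside. DDC had 15.75 ± 5.05 CPM inside and 3.55 outside, and SLC18A2 30.4 ± 17.6 inside and 4.69 outside. The dopamine transporter gene SLC6A3, of the same list, had 0.487 ± 0.344 CPM inside and 1.003 outside. That list matched cluster 22 best, by TH, SLC18A2 and DDC, but at 37.5% of its markers it was too little for a name. SOX10, of neural crest glia, had 2.005 ± 1.08 CPM inside and 1.82 outside.

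The start regions of HAND2 and FOXA1, which rose, and of SLC17A7, which fell, are shown to set members of opposite direction side by side. They are RefSeq windows on GRCh38.p14 from 250 bases before to 50 bases after a gene's start, on the minus strand and written 5′ to 3′. Capitals mark TAAT on either strand (read as TAAT or ATTA, overlaps allowed), the core that many homeodomain proteins, the HOX proteins among them, bind.
HAND2, chr4:173530180-173530479: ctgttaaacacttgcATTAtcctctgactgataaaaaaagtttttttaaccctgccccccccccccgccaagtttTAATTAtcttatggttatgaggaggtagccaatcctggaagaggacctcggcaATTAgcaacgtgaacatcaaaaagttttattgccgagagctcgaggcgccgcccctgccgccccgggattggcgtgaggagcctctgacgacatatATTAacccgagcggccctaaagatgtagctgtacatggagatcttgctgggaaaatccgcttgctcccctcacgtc
FOXA1, chr14:37595200-37595499: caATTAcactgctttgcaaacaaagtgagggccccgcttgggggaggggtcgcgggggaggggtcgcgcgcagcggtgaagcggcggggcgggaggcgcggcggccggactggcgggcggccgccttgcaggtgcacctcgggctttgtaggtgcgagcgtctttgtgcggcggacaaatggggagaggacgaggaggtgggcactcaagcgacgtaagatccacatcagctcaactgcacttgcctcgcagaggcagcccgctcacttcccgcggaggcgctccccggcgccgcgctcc
SLC17A7, chr19:49441478-49441777: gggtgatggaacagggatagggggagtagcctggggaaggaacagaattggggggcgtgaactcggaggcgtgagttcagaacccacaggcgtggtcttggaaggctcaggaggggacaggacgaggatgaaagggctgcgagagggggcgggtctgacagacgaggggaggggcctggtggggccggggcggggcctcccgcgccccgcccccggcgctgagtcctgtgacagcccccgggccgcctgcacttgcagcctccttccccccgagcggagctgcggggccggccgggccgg
They hold 5, 1 and 0 matches. Of the 35116 windows of the same length 50.2% hold at least 1, so a match is common and says nothing of binding.

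Connective tissue genes rose in part. Of 12 collagen and mesenchyme genes, all tested, 4 were higher and 0 lower, and all 12 had a positive fold change (median 1.48 on the log2 scale). LUM, which encodes the matrix proteoglycan lumican, had 10.3, 9.002 and 13.3 CPM in fused AcMor 1, 3 and 4 and 6.07, 7.72 and 19.9 CPM in fused Vehic 1, 3 and 4, against 2.52 and 0.293 CPM in single AcMor 1 and 2 and 2.59 and 2.37 CPM in single Vehic 1 and 2, without overlap (log2 fold change 2.48 ± 0.49, edgeR adjusted p = 0.035, limma adjusted p = 0.143 with the correlation). POSTN, encoding the matrix protein periostin, had 52.7 ± 9.53 against 16.2 ± 8.59 CPM (log2 fold change 1.73 ± 0.29, edgeR adjusted p = 0.0171, limma adjusted p = 0.0576 with the correlation). The other calls were DCN (decorin) and COL6A3 (collagen VI), with log2 fold changes of 1.53 ± 0.28 and 1.34 ± 0.29 (edgeR adjusted p = 0.0255 and 0.0484, limma adjusted p = 0.111 and 0.13 with the correlation). COL3A1 at 413 ± 91.8 against 145 ± 82.6 CPM and COL1A1 at 410.2 ± 232 against 91.8 ± 35.1 CPM missed the threshold (edgeR adjusted p = 0.0506 and 0.0621). COL1A1 in the fused tags numbered 1 was at 126 and 121 CPM, beside the highest single tag, as in the share of mesenchymal-like cells. POSTN in these tags was at 49.97 and 41.4 CPM, above all single tags. Without them 11 of the 12 were called higher, and over all tags 0 were called with the correlation or the block. Of 8 mesenchymal markers 2 were higher, with a summed level of 552.2 to 1605 CPM in fused and 168.0 to 582.0 CPM in single tags. These 2 are LUM and DCN, and both lost the call with the correlation (limma adjusted p = 0.143 and 0.111). Like the floor plate markers, the 8 oligodendrocyte lineage markers had sums without overlap. They were at 46.91 to 88.35 CPM in fused and 13.17 to 32.88 CPM in single tags, with 1 of 6 tested called higher.

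A pair of neuronal genes fell. SLC17A7 (chr19:49429401-49441527), the vesicular glutamate transporter of cortical excitatory neurons, had 6.34, 6.62 and 6.46 CPM in fused AcMor 1, 3 and 4 and 11.9, 2.95 and 7.73 CPM in fused Vehic 1, 3 and 4, against 28.1 and 11.9 CPM in single AcMor 1 and 2 and 21.8 and 18.9 CPM in single Vehic 1 and 2. Fused Vehic 1 lay just under single AcMor 2, and the groups did not overlap. The log2 fold change was -1.53 ± 0.33 (edgeR adjusted p = 0.0465, limma adjusted p = 0.132 with the correlation). SLC24A2, a neuronal exchanger of sodium, potassium and calcium, had 41.9 ± 17.9 against 172 ± 61.7 CPM (log2 fold change -2.03 ± 0.30, edgeR adjusted p = 0.0123, limma adjusted p = 0.0576 with the correlation).

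Among all 23860 genes tested, 4266 had an unadjusted p under 0.05 and DESeq2 called 1565. Of 10 telencephalon factors 0 were called by edgeR (5 at an unadjusted p under 0.05, 4 called by DESeq2; median log2 fold change -0.99), and 6 were lower without the fused tags numbered 1. Of 12 cortical layer factors 0 were called by edgeR (7 at an unadjusted p under 0.05, 2 called by DESeq2; median -0.85), and 8 were lower without those tags. EMX1 was at 8.47 ± 6.31 against 32.01 ± 12.3 CPM (edgeR adjusted p = 0.0592), with fused Vehic 1 at 20.5 CPM, and TBR1 at 18.2 ± 10.6 against 55.8 ± 31.8 CPM (edgeR adjusted p = 0.0812); both were named after their values were seen. LHX2 was at 25.5 ± 11.1 against 54.9 ± 12.5 CPM (edgeR adjusted p = 0.0885) and SOX5, of deep-layer neurons, at 1401 ± 527 against 2820.0 ± 528 CPM without overlap (edgeR adjusted p = 0.0817). NR2F1 and CUX1 had log2 fold changes of 0.38 and -0.05 (edgeR adjusted p = 0.756 and 0.882).

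The largest falls by the naming rule were mostly genes known by an identifier only. LINC01478 (chr18:44323435-44531697), a long non-coding RNA, had 6.76, 8.88 and 8.59 CPM in fused AcMor 1, 3 and 4 and 7.11, 5.3 and 8.67 CPM in fused Vehic 1, 3 and 4, against 47.8 and 25.8 CPM in single AcMor 1 and 2 and 69.7 and 68.7 CPM in single Vehic 1 and 2. The 6 fused tags were close together and all far below the lowest single tag. The log2 fold change was -2.76 ± 0.26 (edgeR adjusted p = 0.00296, limma adjusted p = 0.0172 with the correlation and edgeR adjusted p = 0.0446 with the block). SPATA16 (chr3:172889357-173141235), named for spermatogenesis, had 5.04 ± 1.24 against 30.9 ± 10.9 CPM (log2 fold change -2.59 ± 0.26, edgeR adjusted p = 0.00296, limma adjusted p = 0.0194 with the correlation, edgeR adjusted p = 0.0577 with the block). ENSG00000237473 (chr3:173153737-173336965 in GENCODE v29), 12501 bases from it, had 3.61 ± 1.22 against 18.7 ± 9.25 CPM (log2 fold change -2.32 ± 0.35, edgeR adjusted p = 0.0123, limma adjusted p = 0.0576 with the correlation). SPATA16 and ENSG00000237473 are both among the 10 leading genes of the main excitatory neuron-like cluster, and LINC01478 is among those of the radial glia or progenitor-like cluster. The others were ENSG00000287120, ENSG00000283648, ENSG00000286474, ENSG00000287360, ENSG00000287636 and LINC02232, with log2 fold changes of -2.78, -2.51, -2.42, -2.23, -1.98 and -1.95 (limma adjusted p = 0.0705, 0.0194, 0.136, 0.0563, 0.113 and 0.0759 with the correlation). Of these, ENSG00000283648, ENSG00000287360 and ENSG00000287636 are among the leading genes of the main intermediate progenitor-like cluster, beside EOMES.

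Of 10 glutamatergic transmission genes 1 was higher and 1 lower, and 2 were higher and 4 lower without the fused tags numbered 1. The lower one was SLC17A7, and the higher one GRIN2A, the NMDA receptor subunit GluN2A. GRIN2A had 157, 67.2 and 90.2 CPM in fused AcMor 1, 3 and 4 and 91.95, 99.2 and 173 CPM in fused Vehic 1, 3 and 4, against 34.4 and 29.9 CPM in single AcMor 1 and 2 and 25.8 and 29.3 CPM in single Vehic 1 and 2. The lowest fused tag was well above the highest single tag (log2 fold change 1.92 ± 0.26, edgeR adjusted p = 0.00936, limma adjusted p = 0.0576 with the correlation), and the call held with each tag left out in turn. The AMPA receptor genes GRIA1 and GRIA2 were not called (log2 fold changes -0.94 and -0.59, edgeR adjusted p = 0.0739 and 0.232). TAC1, the precursor of substance P, had 0.958 to 1.61 CPM in fused and 0.0987 to 0.439 CPM in single tags (log2 fold change 2.46 ± 0.39, edgeR adjusted p = 0.0142, limma adjusted p = 0.0897 with the correlation). It was the 1 call among 11 tested striatal genes and among 6 tested neuropeptide genes, where SCG2 at 27.5 ± 7.51 against 8.46 ± 4.91 CPM missed the threshold (edgeR adjusted p = 0.0519). In each of these 2 lists 4 were higher without the fused tags numbered 1.

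Opioid and dopamine receptor genes were not called. Of 7 tested opioid genes 0 passed in edgeR (1 at an unadjusted p under 0.05, 0 called by DESeq2). Over all genes, 4266 of 23860 had an unadjusted p under 0.05. OPRM1, the receptor that morphine binds, had 9.66 to 15.8 CPM in fused and 7.4 to 10.98 CPM in single tags, with overlap (log2 fold change 0.39 ± 0.19, edgeR adjusted p = 0.315), and OPRD1 had 1.84 ± 0.708 against 0.899 ± 0.421 CPM (edgeR adjusted p = 0.193). Of 6 tested dopamine receptor and breakdown genes 0 passed in edgeR (2 at an unadjusted p under 0.05, 1 called by DESeq2). Of 11 tested subpallial DLX and GABA genes 0 passed in edgeR (0 at an unadjusted p under 0.05, 0 called by DESeq2), with DLX6-AS1 and GAD2 at log2 fold changes of 0.14 ± 0.34 and 0.14 ± 0.35. Leaving out the fused tags numbered 1, 1 opioid gene, 1 dopamine gene and 0 subpallial genes were higher, against 2138 of 23565 over all genes tested there.

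Of 14 immediate early genes, which respond to neuronal activity and also to handling of tissue, 1 was higher and 0 lower. FOS had 97.3 to 143 CPM in fused and 56.97 to 99.9 CPM in single tags, overlapping by fused Vehic 1 and single AcMor 1 (log2 fold change 0.68 ± 0.14, edgeR adjusted p = 0.0416, limma adjusted p = 0.126 with the correlation). JUN, at 88.2 ± 10.9 against 57.9 ± 14.04 CPM, and EGR1, at 174 ± 36.9 against 202 ± 88.4 CPM, were not called (edgeR adjusted p = 0.0917 and 0.826). Without the fused tags numbered 1, 8 of the 14 were higher, against 2138 of 23565 over all genes tested there.

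Of 9 mitochondrially encoded genes 4 were higher and 0 lower, and all 9 had a positive fold change (median 0.76 on the log2 scale). MT-ND2, of respiratory complex I, had 169 ± 23.1 against 86.7 ± 23.8 CPM (log2 fold change 1.00 ± 0.16, edgeR adjusted p = 0.0156, limma adjusted p = 0.0759 with the correlation). MT-ATP6, MT-ND4 and MT-CYB had log2 fold changes of 0.80, 0.78 and 0.65 (edgeR adjusted p = 0.0263, 0.0424 and 0.0209, limma adjusted p = 0.0938, 0.118 and 0.0705 with the correlation), so 0 of the 9 were called with the correlation, and 8 were higher without the fused tags numbered 1. This is another reading of the mitochondrial share per cell given above, a measure often read for cell quality, and its part in the other results was not tested.

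Of 10 motile cilium genes 1 was higher and 0 lower, and all 10 had a positive fold change (median 0.85). RSPH1, of the radial spoke, had 7.78 ± 1.86 against 3.28 ± 0.813 CPM (log2 fold change 1.25 ± 0.23, edgeR adjusted p = 0.0295, limma adjusted p = 0.108 with the correlation), and 64.4% of its fused counts were in cluster 6. DNAH9 and CFAP43 were not called (edgeR adjusted p = 0.0555 and 0.256), and 5 of the 10 were higher without the fused tags numbered 1.

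Of 12 cell cycle genes 0 passed in edgeR (1 at an unadjusted p under 0.05, 0 called by DESeq2), and 9 were lower without the fused tags numbered 1. MKI67, which marks dividing cells, had 349, 101 and 69.9 CPM in fused AcMor 1, 3 and 4 and 224, 48.9 and 58.2 CPM in fused Vehic 1, 3 and 4, against 168 and 192 CPM in single AcMor 1 and 2 and 142 and 139 CPM in single Vehic 1 and 2. The fused tags numbered 1 were above all single tags and the other fused tags below them. Of 12 radial glia genes 0 passed in edgeR (3 at an unadjusted p under 0.05, 2 called by DESeq2), and 6 were lower without those tags. Of 8 tested muscle genes 0 passed in edgeR (4 at an unadjusted p under 0.05, 0 called by DESeq2), and TTN reached 2217 CPM in single Vehic 2. LEF1, a WNT effector, just missed the threshold at 68.8 ± 17.5 against 121 ± 18.4 CPM (edgeR adjusted p = 0.0506). In the astrocyte, choroid plexus, medial ganglionic eminence, diencephalon, WNT and BMP, hypoxia, stress, cholesterol and synaptic vesicle lists edgeR called 0 genes, with 6, 0, 3, 3, 4, 2, 4, 3 and 1 at an unadjusted p under 0.05 and 3, 0, 2, 1, 3, 0, 2, 1 and 1 called by DESeq2. Without the fused tags numbered 1 edgeR called 5, 0, 2, 2, 1, 2, 2, 0 and 0 of them higher and 1, 0, 0, 0, 3, 0, 0, 2 and 1 lower, and 0 muscle genes in either direction.

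The most highly expressed members of these lists show how far single genes differed without passing. The gap junction gene GJA1 of astrocytes was at 39.2 ± 9.02 against 17.7 ± 11.4 CPM, with overlap (edgeR adjusted p = 0.0828), and the glutamate transporter gene SLC1A2 at 197 ± 50.5 against 269 ± 25.96 CPM (edgeR adjusted p = 0.194). TCF7L2, a thalamic and WNT factor, was at 185 ± 17.1 against 145 ± 9.24 CPM, where the groups did not overlap (edgeR adjusted p = 0.0931). SYT1, the calcium sensor of synaptic vesicles, was at 689 ± 144 against 1027 ± 112 CPM (edgeR adjusted p = 0.0876). ERBB4, the neuregulin receptor of migrating interneurons, was at 520.5 ± 155 against 289 ± 94.1 CPM (edgeR adjusted p = 0.126) and was called with the block (edgeR adjusted p = 0.0283). The chaperone gene HSPA5 was at 101 ± 17.4 against 63.3 ± 23.1 CPM (edgeR adjusted p = 0.126), and SREBF2, which drives cholesterol synthesis, at 210.4 ± 40.8 against 289.9 ± 43.7 CPM (edgeR adjusted p = 0.122). Log2 fold changes were -0.78 ± 0.42 for PTPRZ1 and 0.02 ± 0.24 for SLC1A3 of radial glia, -0.26 ± 0.20 for MEIS2 and 0.50 ± 0.34 for FOXP2 of striatal neurons, and -0.20 ± 0.20 for BMP7.

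**Figure D4:**
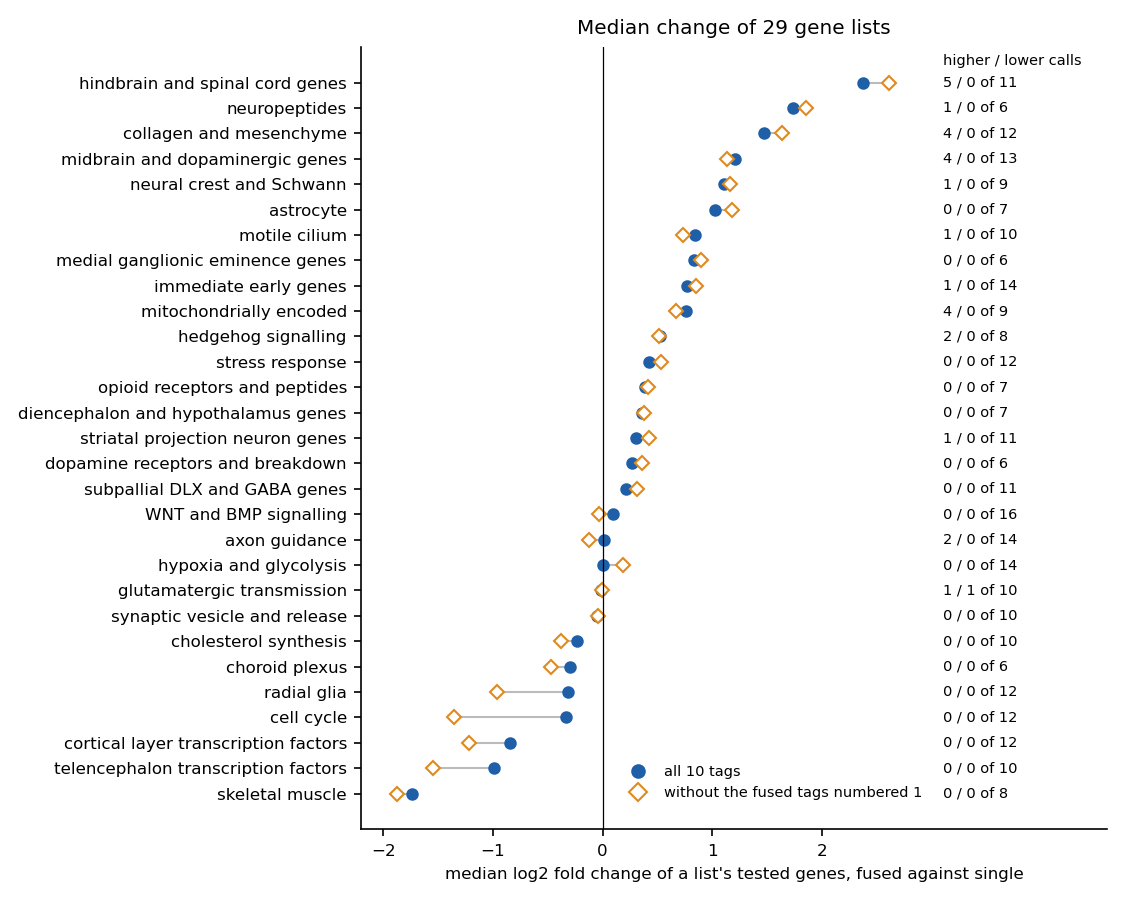
Median log2 fold change, fused against single (x axis), of the tested genes of each of 29 lists (y axis) over all 10 tags (blue circles) and without the fused tags numbered 1 (open orange diamonds), with the numbers called higher and lower at the right. The hindbrain and spinal cord list lies highest at 2.37, and the cell cycle list moves from -0.34 to -1.35 when the 2 tags are left out.

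Genes were also tested within classes. The share of a class no longer enters there, but its cell number in a tag still sets the depth. Fewer genes and cells entered than over all cells, so the numbers of calls are not compared. Counts were summed per tag over the cells of each of the 4 classes with at least 20 cells in every tag. In excitatory neuron-like cells (26 to 521 in a tag) 37 of 12421 genes passed (0.298%), 34 higher and 3 lower. CNTNAP4, a neuronal adhesion gene of the neurexin superfamily, had 267, 101 and 83.5 CPM in fused AcMor 1, 3 and 4 and 91.2, 123 and 94.8 CPM in fused Vehic 1, 3 and 4, against 22.5 and 21.2 CPM in single AcMor 1 and 2 and 37.4 and 17.7 CPM in single Vehic 1 and 2. The lowest fused tag was above the highest single one (log2 fold change 2.29 ± 0.40, edgeR adjusted p = 0.0495, and 0.0663 with the block). The other largest rises were C1QL3, which encodes a secreted synaptic protein, BRINP3, the heparan sulfate sulfotransferase gene HS6ST3 and PID1, with log2 fold changes of 2.26 ± 0.41, 2.06 ± 0.33, 1.93 ± 0.32 and 1.89 ± 0.30. The falls were LINC02649, ENSG00000285755 and EPHA5, an ephrin receptor gene, at -2.05 ± 0.34, -1.61 ± 0.30 and -0.72 ± 0.14. Of the 37, 0 were called with each tag left out in turn, 25 without the fused tags numbered 1 and 9 with the block.

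In radial glia or progenitor-like cells (21 to 267 in a tag) 44 of 13328 genes passed (0.33%), 34 higher and 10 lower. GALNT14, whose enzyme starts O-linked sugar chains, had 9.77, 10.4 and 9.78 CPM in fused AcMor 1, 3 and 4 and 12.3, 13.96 and 28.9 CPM in fused Vehic 1, 3 and 4, against 36.1 and 39.2 CPM in single AcMor 1 and 2 and 50.5 and 62.04 CPM in single Vehic 1 and 2. All fused tags were below all single tags (log2 fold change -1.86 ± 0.23, edgeR adjusted p = 0.00295, and 0.00451 with the block), and it was the 1 gene of the 44 called with each tag left out in turn. HS3ST4, another heparan sulfate sulfotransferase gene, CRHR2, a receptor of the corticotropin-releasing hormone family, LINC01748 and ZNF609 had log2 fold changes of -1.76 ± 0.32, -1.60 ± 0.33, -0.98 ± 0.19 and -0.66 ± 0.13. The largest rises were RBM47, SYNM, SLC7A11-AS1, MYO16 and CADPS2, at 1.95 ± 0.34, 1.69 ± 0.34, 1.66 ± 0.33, 1.65 ± 0.31 and 1.63 ± 0.26. Of the 44, 38 were called without the fused tags numbered 1 and 26 with the block.

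**Figure D5:**
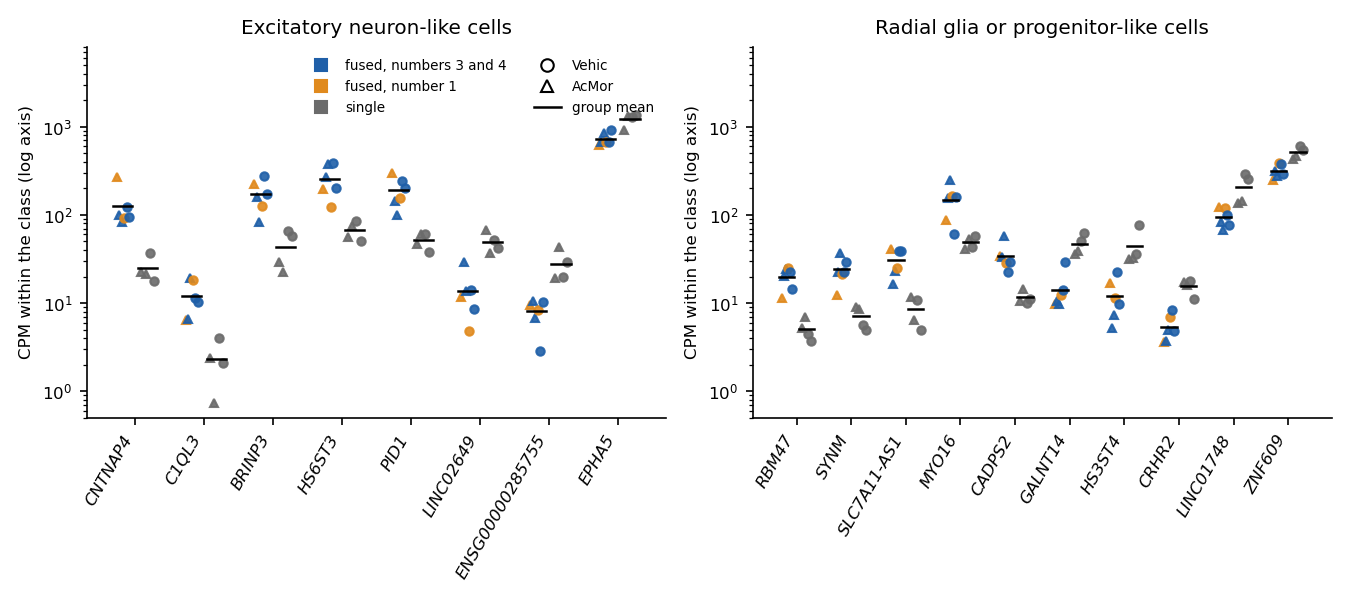
Level within the class (y axis, CPM, log axis) of the genes with the largest rises and falls in excitatory neuron-like cells (left) and in radial glia or progenitor-like cells (right), by tag, with circles for Vehic, triangles for AcMor and short lines for group means. The rule picked these 18 genes for having the 6 fused tags (blue and orange) on 1 side of the 4 single tags (grey), as 33 of the 37 calls on the left and 20 of the 44 on the right do.

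In GABAergic neuron-like cells 0 of 12965 genes passed in edgeR (0.0%), with 507 at an unadjusted p under 0.05 and 17 called by DESeq2. In mesenchymal-like cells 0 of 15235 passed in edgeR (0.0%), with 974 at an unadjusted p under 0.05 and 41 called by DESeq2. The mesenchymal-like cells were spread differently over clusters. Cluster 7 held 44.5% of the fused and 24.2% of the single ones, and cluster 20 held 37.7% and 57.7%. Of the 353 genes called over all cells, 179 were tested in GABAergic neuron-like, 188 in excitatory neuron-like, 263 in mesenchymal-like and 187 in radial glia or progenitor-like cells. Their median absolute log2 fold change there was 0.32, 0.57, 0.53 and 0.64, against 1.08, 1.1, 1.2 and 1.07 for the same genes over all cells. These cells are part of the sums in which the genes were called, and genes chosen for a large fold there tend to a smaller one elsewhere, so nothing is read from the difference. None of the 39 HOX genes passed the filter in the 3 neural classes, and 5 passed in mesenchymal-like cells, all with a positive fold change and 0 called.

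Whether fused and single tags differed in another way under AcMor was tested by an interaction. In edgeR 0 of 24718 genes passed (0.0%), with 509 at an unadjusted p under 0.05, and DESeq2 called 2.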

How the data were processed

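Single cells of H1 cultures were profiled by split-pool barcoding, and the series' 8 samples are sublibraries of 1 pool, so the culture tag in a cell's name was the unit. Per the submitters' processing notes, Salmon 1.7.0, alevin, Seurat 4.1.1 and hg38 were used. The deposited matrix holds the authors' expected counts, of which 54.32% are exactly whole (no tolerance, single precision), for 60286 genes in 43693 cells, all with at least 1006 genes and at most 10.0% mitochondrial counts. No cell was removed here. Whether counting used strand is not given in the sources used here.

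The members and gene lists were chosen with earlier results of these data known. Sums of counts over a tag, or over a class within a tag, were rounded to integers. They were tested in edgeR 4.0.16 (R 4.3.3) by the quasi-likelihood test with the robust option, TMM, filterByExpr, treatment as covariate and Benjamini-Hochberg adjustment. Printed CPM use TMM library sizes over all cells and the sum of tested genes in the tests within classes. The levels described inside and outside a cluster, and the HOX levels by category, use all counts of those cells without TMM. DESeq2 1.42.0 and limma 3.58.1 gave alternatives.

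All cells of the series were clustered, using genes in at least 20 cells, on 2000 variable genes, listed genes left out, with 30 components, 20 neighbours and Leiden resolution 0.8 (leidenalg 0.10.2). A cluster was named where at least 3 markers and 40% of a marker list were in at least 10% of its cells and at least 2-fold higher than elsewhere. Simulated doublets gave a score with a threshold of 0.6, set after seeing the scores. It marked 5203 cells (11.91%) and 61.69% of the simulated doublets. Doublets were kept, and left out as an alternative.

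Named genes are, for each list, up to 4 called members with the largest change and up to 2 uncalled members with the highest CPM. To these come the 10 largest rises and 10 largest falls among called genes with a mean of at least 5 CPM in 1 arrangement whose arrangements do not overlap, and 5 and 5 in each class. A gene that the rule names is not reported here. Genes named beyond this rule (SPON1, EMX1, TBR1, TH, HOXA9, HOXB9, the genes given for clusters 6 and 22) were chosen after their values were seen.

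Tags of the same number in the 2 treatments of an arrangement deviated together over genes (r = 0.602, 0.268 and 0.336 in fused, 0.181 in single tags), so the numbers were taken to pair tags within an arrangement. Fused numbers 3 and 4 were not told apart by this, since AcMor 4 with Vehic 3 had r = 0.380 and AcMor 3 with Vehic 4 0.203, while number 1 with 3 or 4 had -0.540 to -0.352. Deviations within a group sum to 0, so these values are not independent of each other. With 2 single tags in a group, different numbers must give the same value with the opposite sign (-0.181). Between arrangements r for number 1 was -0.213 to 0.261. The fits were tested on simulated tags, drawn independently with 1 common dispersion, while real tags of the same number deviated together. Over all cells 47% of genes with an absolute log2 change of 1 were called and 99% of those with 2, with 8 false calls. In excitatory neuron-like cells these were 69%, 100% and 6. A gene that was not called may therefore still differ.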

Additional observations from a re-analysis of the deposited data

Results flagged for a closer look

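In 13 of 186 groups of 4 or 6 tags, 1 tag lay far from the others by Dixon's rule. The rule flags about 1 in 20 groups of normally distributed values. The groups here share the same tags and are not independent, so the 13 are not compared with that rate. Among shares these were cluster 14 in fused AcMor 1 (11.25%) and radial glia or progenitor-like cells in fused AcMor 1 (18.89%).

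Among genes in fused tags, fused Vehic 1 had the far value of OTX2 (22.52 CPM), PAX2 (63.79 CPM), TTN (236.7 CPM) and TBR1 (39.12 CPM). Among genes in single tags, single Vehic 2 had the far value of HOXB3 (7.01 CPM), HOXB-AS3 (8.886 CPM), HOXA9 (0.4936 CPM) and TTN (2217 CPM). Single AcMor 1 had that of EN1 (0.07 CPM, the other 3 single tags being at 0), single AcMor 2 that of LUM (0.2927 CPM, the lowest) and single Vehic 1 that of SLC1A3 (569.7 CPM).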

How the results depend on the processing

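Relative to 353 calls over all cells, library sizes alone gave 479, the upper quartile 415, no robust option 354 and limma voom 290. DESeq2 called 1565, no filter 628, leaving doublets out 213, the Vehic tags alone 5 and the AcMor tags alone 0. The replicate block gave 24 and the correlation by number 33, with 15 and 33 of the 353 kept, and leaving both fused tags numbered 1 out gave 4255. Leaving out 1 tag gave 67 to 1564. For the interaction DESeq2 called 2, and the replicate block and every tag left out in turn 0.

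Within excitatory neuron-like cells DESeq2 called 166, no filter 330, the replicate block 60 and leaving fused number 1 out 81, and 1 tag left out gave 0 to 43. Within radial glia or progenitor-like cells these were 161, 268, 145, 143 and 1 to 63. Within GABAergic neuron-like cells they were 17, 55, 13, 5 and 0 to 2, and within mesenchymal-like cells 41, 329, 1, 29 and 0 to 0.

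The differences in share of cluster 6, excitatory neuron-like and intermediate progenitor-like cells kept their direction in every setting where the group was followed (cluster 6 was not followed at other resolutions, nor intermediate progenitor-like cells at 0.4). They no longer passed with doublets left out (7.698, -14.81 and -6.819 points, exact permutation p = 0.01, 0.02 and 0.01 before adjustment) or with fused number 1 left out (8.675, -17.3 and -7.332). Nor did they pass with a second clustering seed (8.173, -12.68 and -1.777), chosen after seeing the data, as were the fits without fused number 1, and excitatory neuron-like cells did not at resolution 0.4 (-19.02). With 1 tag left out they ranged over 7.768 to 8.844, -19.28 to -10.05 and -6.974 to -5.668 points, and none of the 3 passed in any of these 10 settings (exact permutation, adjusted p = 0.0722 to 0.1625), where fewer arrangements raise the smallest p. Shares were not tested with a replicate block, since permuting whole numbers leaves 10 arrangements. The share of cluster 16 turned with doublets left out (0.07508), that of cluster 14 without fused AcMor 1 (-1.142), single AcMor 1 (-0.8073) or both fused number 1 (-1.287), and that of GABAergic neuron-like cells without single AcMor 1 (-2.585). With 1 tag left out the last 2 ranged over -1.142 to 1.128 and -2.585 to 5.929 points. The causes were not tested.

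For the 80 genes followed over these settings, 0 called fold changes turned, 320 values lost a call, 93 gained one and 1342 kept their side. Class fits were not repeated with the second seed.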
